A study of Mus musculus with 8 samples.

Results

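Nrgn and Pcp4 encode neurogranin and Pcp4 (also called PEP-19), small neuronal proteins that bind calmodulin through an IQ motif. They were examined in the medial prefrontal cortex of mice that lack the receptor GPR158 in Camk2a-expressing cells. Both genes were chosen by symbol, with the authors' fold changes and adjusted p-values for them already known, so those values chose the members and are given as a description, with no test. They are 2 of the 2372 genes in the deposited table.

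Bulk poly-A RNA was sequenced from 8 adult male mice on a C57Bl/6J background, which the labels call naive. The 4 CaKO mice had the genotype CamK2A-Cre;Gpr158flox/flox, and the 4 littermate controls were Gpr158flox/flox without the Cre, so the floxed alleles were shared by both groups. The study asked what lies behind a shortage of glutamate vesicles after GPR158 loss from glutamatergic neurons. The Camk2a promoter drives Cre mainly in forebrain excitatory neurons, so other cells of the tissue keep the receptor gene. The targeted gene could not be checked, because Gpr158 has no row in the table used here. Values of the control libraries were not analysed here. A level in the controls is therefore the one implied by the CaKO mean and the authors' fold change, and it has no spread of its own. In bulk tissue, fewer cells of a type and less RNA per cell cannot be told apart.

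Calmodulin is the main intracellular calcium sensor of neurons. Most of its partners bind it when calcium is high, whereas neurogranin and Pcp4 can bind calmodulin that holds no calcium. Neurogranin is abundant in the cell bodies and dendrites of forebrain pyramidal neurons, where protein kinase C phosphorylates its IQ motif and thereby releases calmodulin. Pcp4 speeds the exchange of calcium at calmodulin, and is known from cerebellar Purkinje cells, hippocampal CA2 and deep-layer cortical neurons. Gap43, the growth-cone protein, and Pcp4l1 are their closest relatives.

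The coding DNA around the IQ motif shows how alike the peptides with a row in the table are. Each line gives 57 bases, 5′ to 3′ on the coding strand, from GENCODE M21 transcripts (GRCm38). Capitals mark the 33 bases of the motif, found as isoleucine and glutamine, an arginine at the sixth place, and arginine or lysine at the last of 11 places.
Nrgn: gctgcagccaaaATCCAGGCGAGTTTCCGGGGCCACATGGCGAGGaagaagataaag
Pcp4: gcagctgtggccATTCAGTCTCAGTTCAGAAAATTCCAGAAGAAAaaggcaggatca
Pcp4l1: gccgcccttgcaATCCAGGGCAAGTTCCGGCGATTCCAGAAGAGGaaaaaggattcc

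Pcp4 and Pcp4l1 were identical at 22 of the 33 bases and 7 of the 11 encoded residues. The motifs of Nrgn and Pcp4 were less alike, with 14 identical bases and 4 identical residues. Neurogranin's motif spans codons 33 to 43 of 78 and lies in exon 2 of its transcript, at chr9:37546061-37546093 on the minus strand. The Pcp4 motif spans codons 46 to 56 of 62, close to the end of the protein, and lies in exon 3 at chr16:96525464-96525496 on the plus strand.

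Nrgn (ENSMUSG00000053310.11) lies at chr9:37544492-37552904 on the minus strand, with 1453 bases of exon. Its normalised counts in CaKO replicates 1 to 4 were 13299, 14308, 9047 and 14512. Replicate 3 was the lowest, and the other 3 libraries lay close together. Counting error does not span that gap, since the 95% interval of replicate 3 was 8862 to 9235 and that of replicate 1 was 13073 to 13528. The CaKO mean was 12792 ± 2552 normalised counts (SD, n = 4). The authors' deposited table gives Nrgn a log2 fold change of -0.50, which is 1.42-fold lower in CaKO, with a p of 0.000452 and an adjusted p of 0.0238. The implied control level was 18139 normalised counts, and the 4 CaKO libraries stood at 49.9% to 80.01% of it. The standard error that the deposited p implies was 0.14, which gives a 95% interval of -0.79 to -0.22 on the log2 scale.

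Pcp4 (ENSMUSG00000090223.2) lies at chr16:96467606-96525793 on the plus strand, with 1026 bases of exon. Its normalised counts in CaKO replicates 1 to 4 were 397.0, 294.6, 146.1 and 190.7. Replicate 1 was the highest and replicate 3 again the lowest. The 95% counting intervals of the libraries were 358.8 to 438.1, 261.9 to 330.2, 123.5 to 171.8 and 164.1 to 220.4, so only those of replicates 3 and 4 overlapped. The CaKO mean was 257.1 ± 112.1 normalised counts (SD, n = 4). The authors' deposited table gives Pcp4 a log2 fold change of -1.47, which is 2.76-fold lower in CaKO, with a p of 2.34e-05 and an adjusted p of 0.00364. The implied control level was 710.7 normalised counts, and the CaKO libraries stood at 20.6% to 55.9% of it. The implied standard error was 0.35, with a 95% interval of -2.15 to -0.79 on the log2 scale.

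**Figure D1:**
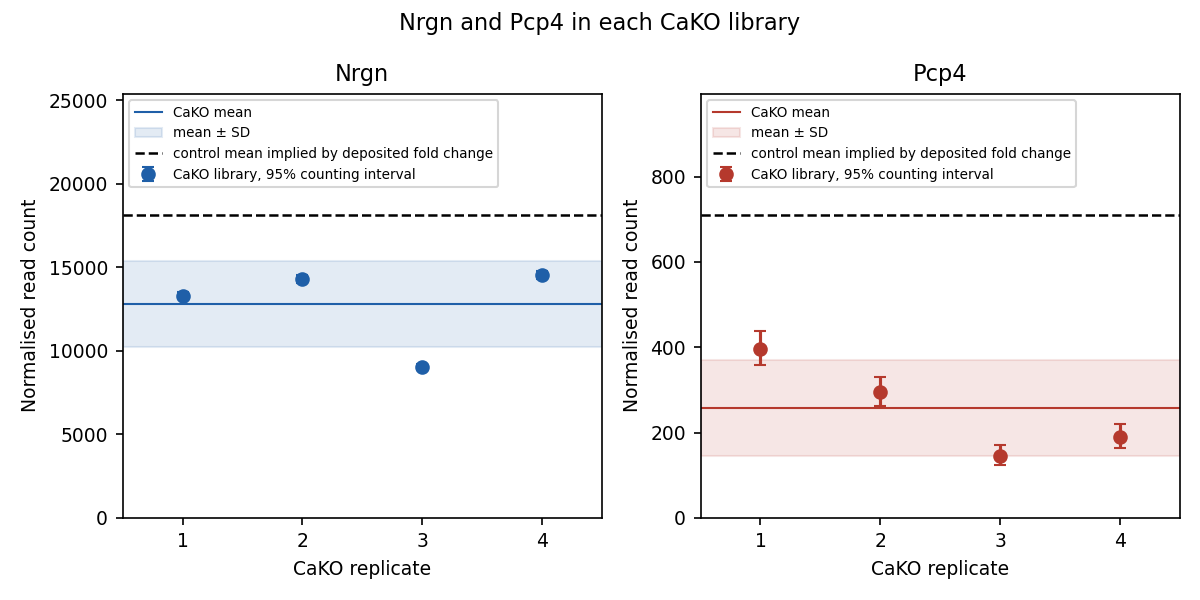
Normalised counts of Nrgn and Pcp4 in each CaKO library (points, 1 per mouse, with bars for the 95% counting interval), with the CaKO mean (line), its SD (band) and the control level implied by the authors' deposited fold change (dashed). All 4 CaKO points of Nrgn and of Pcp4 lie below their implied control level, and replicate 3 is the lowest for both. The implied level was derived from the CaKO mean and the deposited fold change, so the mean lies below it by construction.

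The size of each change differed in relation to the spread between mice. For Pcp4 the authors' deposited fold change (-1.47) was larger than the range over the CaKO libraries, 1.44 on the log2 scale. For Nrgn the deposited change (-0.50) was smaller than that range, 0.68. The 2 changes differed by 0.96 on the log2 scale, and this difference was not tested. By the deposited fold change Pcp4 ranked 2nd lowest and Nrgn 142nd lowest among the 419 genes with an adjusted p below 0.05. The authors' deposited table has adjusted p-values over 12938 genes, of which 3.24% passed, 1.97% as falls (255 genes) and 1.27% as rises (164 genes). Both members are among the falls, and since that contrast chose them nothing is read from the count.

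Both genes varied more between CaKO mice than most genes of like abundance that have a row in the adjustment. Genes with an unadjusted p above 0.0499 have no row, so the medians below do not cover all genes of like abundance. The coefficient of variation of Nrgn was 19.9%, against a median of 8.67% over 57 genes of the table with a mean within 2-fold, 3 of which were higher. That of Pcp4 was 43.6%, against a median of 12.6% over 734 such genes, 6 of which were higher. Without replicate 3, the fold change of Nrgn in the approximation used here was -0.37 with a p of 0.0172, and its call was lost. The approximation keeps the standard error implied by all libraries, widened, so any spread that replicate 3 added remains in that p. Whether a new fit without replicate 3 would lose the call was not tested. Leaving out any other library gave Nrgn -0.57 to -0.52 and kept the call. Pcp4 kept its call without each library in turn, at -1.76 to -1.27.

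Compared per length, neurogranin was by far the more abundant transcript. The CaKO mean per kilobase of exon was 8804 normalised counts for Nrgn, which ranked 7th among the 2047 genes that have a row and entered the adjustment. For Pcp4 it was 250.6, which ranked 665th. The ratio of the levels per kilobase was 23.7, 34.3, 43.7 and 53.7 in CaKO replicates 1 to 4. The ratio implied for the controls, 18.02, was derived from the CaKO means and the deposited fold changes that chose the members. The ratio of the CaKO means, 35.1, therefore lies above 18.02 by construction, and 18.02 has no spread. Each CaKO library also lay above 18.02, and nothing is read from this. The ratio was lowest in replicate 1, where Pcp4 was highest.

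Annotated exon sharing bears on what the Pcp4 count holds. A read-through transcript of the upstream gene Igsf5, an immunoglobulin-domain junction protein, skips the first exon of Pcp4 and takes 52 bases of its second exon and 191 bases of its last. These 243 bases are 23.7% of the 1026 exon bases of Pcp4 and hold 177 of the 186 coding bases of its main transcript, or 95.2%. The whole coding sequence of Pcp4 is short enough to show this. It is printed 5′ to 3′ with the IQ motif in capitals, and only its start, before the second exon, is outside the read-through.
Pcp4: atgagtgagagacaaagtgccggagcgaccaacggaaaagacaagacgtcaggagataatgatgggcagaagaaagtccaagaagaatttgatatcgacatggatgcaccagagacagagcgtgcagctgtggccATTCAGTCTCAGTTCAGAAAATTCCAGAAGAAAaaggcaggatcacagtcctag

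The IQ motif is thus shared, with all 33 bases in the same frame. In the read-through the motif occupies codons 282 to 292 and lies in exon 9. Neither of the 2 Igsf5 gene models of GENCODE M21 has a row in the table. The length that the table gives for Pcp4 equals the union of its own exons, and how reads shared with Igsf5 were counted is not given in the sources used here. No other gene had a transcript nearly identical to Nrgn or Pcp4, at 98% identity over at least 200 bases and 50% of either transcript.

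**Figure D2:**
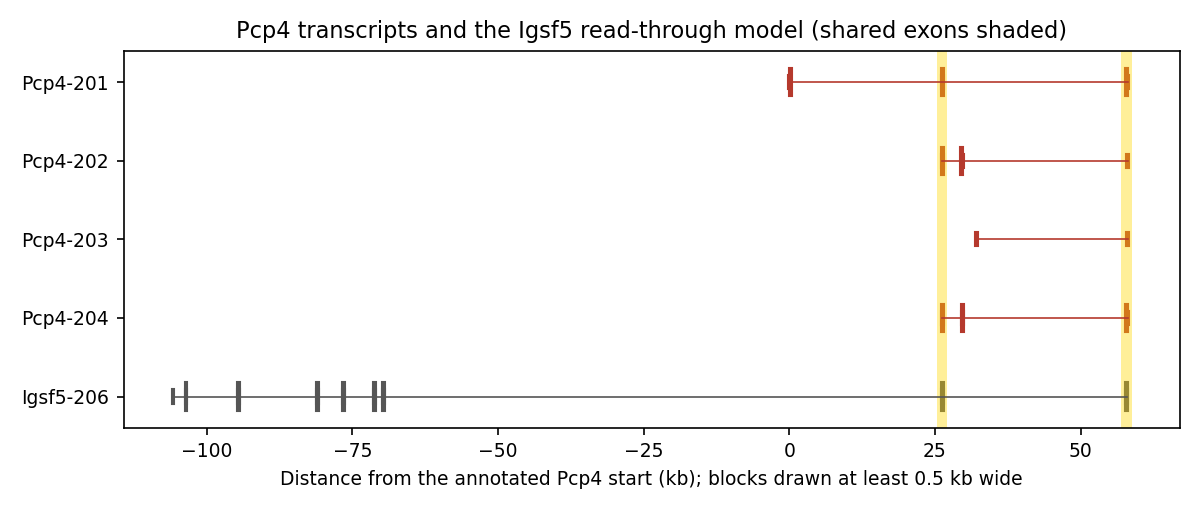
Exons (boxes, coding parts taller, short ones drawn wider than scale) of the 4 Pcp4 transcripts and of the Igsf5 read-through, against distance in kb from the start of Pcp4, with shared exons shaded. The read-through shares 52 and 191 bases with the second and the last Pcp4 exon and none with the first.

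The relatives of these peptides were measured unevenly. Pcp4l1 (chr1:171173262-171196268, minus strand) had 486.5, 689.3, 505.0 and 590.8 normalised counts in CaKO replicates 1 to 4. Replicate 3 was not the lowest here. The authors' deposited table gives Pcp4l1 a log2 fold change of -0.39, with an unadjusted p of 0.00996 and an adjusted p of 0.139, which does not pass. Gap43 has no row, so no value is given for it.

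Of the calmodulin genes with a row, none passed. Calm2 had 21889, 20943, 19551 and 17923 normalised counts in CaKO replicates 1 to 4, and the authors' deposited table gives it a log2 fold change of -0.25 (adjusted p 0.0709). The gene Gm15720 matches 276 bases of Calm2 at 98.2% identity, and whether reads were split between them was not tested. Calm3 had 22450, 20345, 16329 and 24356, with -0.27 in the authors' deposited table (adjusted p 0.191).

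The peptides and their relatives are 1 of 9 lists of calmodulin and calcium signalling genes, which together hold 132 different genes, and 31 had a row in the adjustment. Of the 132, 7 fell (5.30%) and 2 rose (1.52%), beside 1.97% and 1.27% of all genes in the adjustment. The list shares are over all members. How many members without a row entered the adjustment is unknown, so the denominators are not alike. This holds for each list below. By the unadjusted p, 21 were lower (15.9%) and 10 higher (7.58%), beside 8.68% and 7.14% of all genes. Leaving Nrgn and Pcp4 out, 5 of 130 fell (3.85%) and 2 rose (1.54%). The median log2 fold change of the genes with a row was -0.26 with or without the 2 members, and -0.22 over all 2047 genes with a row in the adjustment. Without replicate 3, 3 of the 9 genes kept their call (Pcp4, Prkcq and Rgs4), and 6 did without replicate 2 or without replicate 4.

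Among kinases, phosphatases and their regulators, 1 of 18 in the CaM kinase list and 1 of 9 in the protein kinase C list fell. Of all genes in the adjustment, 1.97% fell. Camk2n2, an inhibitor of CaM kinase II (chr16:20619215-20621287), had 772.9, 939.8, 538.8 and 811.8 normalised counts in the CaKO libraries. The authors' deposited table lists Camk2n2 at -0.59 (adjusted p 0.0126). Without replicate 3 it was -0.45 and the call was lost. Prkcq, a protein kinase C isoform (chr2:11172108-11301222), had 111.6, 107.2, 101.4 and 89.6. The authors' deposited table gives Prkcq -0.59 (adjusted p 0.0126), and its call was lost without replicate 4, at -0.53. Of the 18 CaM kinase and inhibitor genes, 3 were lower and 4 higher by the unadjusted p, beside 8.68% and 7.14% of all genes. The kinases Camk1d (0.24), Camk2d (0.33) and Pnck (0.35) were listed higher by the authors' deposited table on the log2 scale and did not pass, with adjusted p-values of 0.103, 0.116 and 0.146. Prkce, another protein kinase C isoform, was at 0.21 there (adjusted p 0.106). Camk2a, the kinase subunit whose promoter drives the Cre, had 48441, 47897, 37912 and 50901 normalised counts, with -0.20 in the authors' deposited table (adjusted p 0.316). In the calcineurin list, Akap5, a scaffold that anchors calcineurin, was at -0.26 in the authors' deposited table, with an adjusted p of 0.0814, and did not pass. Ppp3r2, a calcineurin subunit of the testis, averaged 0.503 normalised counts and was left out of the adjustment.

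Among 25 genes of calmodulin-regulated enzymes, pumps and channels, 3 were lower and 4 higher by the unadjusted p, and 2 rose. Of all genes in the adjustment, 8.68% were lower, 7.14% higher and 1.27% rose. Itpr1, the inositol trisphosphate receptor (chr6:108213096-108551109), had 13050, 15393, 15249 and 14845 normalised counts, with 0.28 in the authors' deposited table (adjusted p 0.0190). Replicate 1 was the lowest, and the call was lost without replicate 2 (0.25) or 3 (0.26). Atp2b2, a plasma membrane calcium pump, was at -0.21 (adjusted p 0.129) in the authors' deposited table. Grin1, the obligatory NMDA receptor subunit, was at -0.41 there (adjusted p 0.137), and an antisense gene covers 13.5% of its exon bases.

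Other calmodulin-binding proteins and calcium sensors held 3 more falls, 2 among 24 genes and 1 among 19, beside 1.97% of all genes. Camta2, a transcription activator with IQ motifs (chr11:70669463-70688105), had 4048, 4093, 3176 and 4626 normalised counts. The authors' deposited table lists Camta2 at -0.39 (adjusted p 0.0303), and its call was lost without replicate 3, at -0.30. Rgs4, a regulator of G-protein signalling (chr1:169741477-169747642), had 13116, 11184, 12071 and 8994, with -0.38 in the authors' deposited table (adjusted p 0.0356). Its call was lost without replicate 2 (-0.38) or 4 (-0.29). Cabp1, a calmodulin-like sensor of neurons (chr5:115168689-115194381), had 1149, 1498, 1023 and 1560. The authors' deposited table gives Cabp1 -0.66 (adjusted p 0.00833), and its call was lost without replicate 3, at -0.55. Hpca, the calcium sensor hippocalcin, was listed by the authors' deposited table at -0.31 (adjusted p 0.0774) and did not pass. Neither did Strn4, a striatin scaffold (-0.30, adjusted p 0.109), S100a1, an EF-hand protein (-0.29, adjusted p 0.164), or Ncs1, neuronal calcium sensor (0.21, adjusted p 0.314), as the authors' deposited table gives them.

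**Figure D3:**
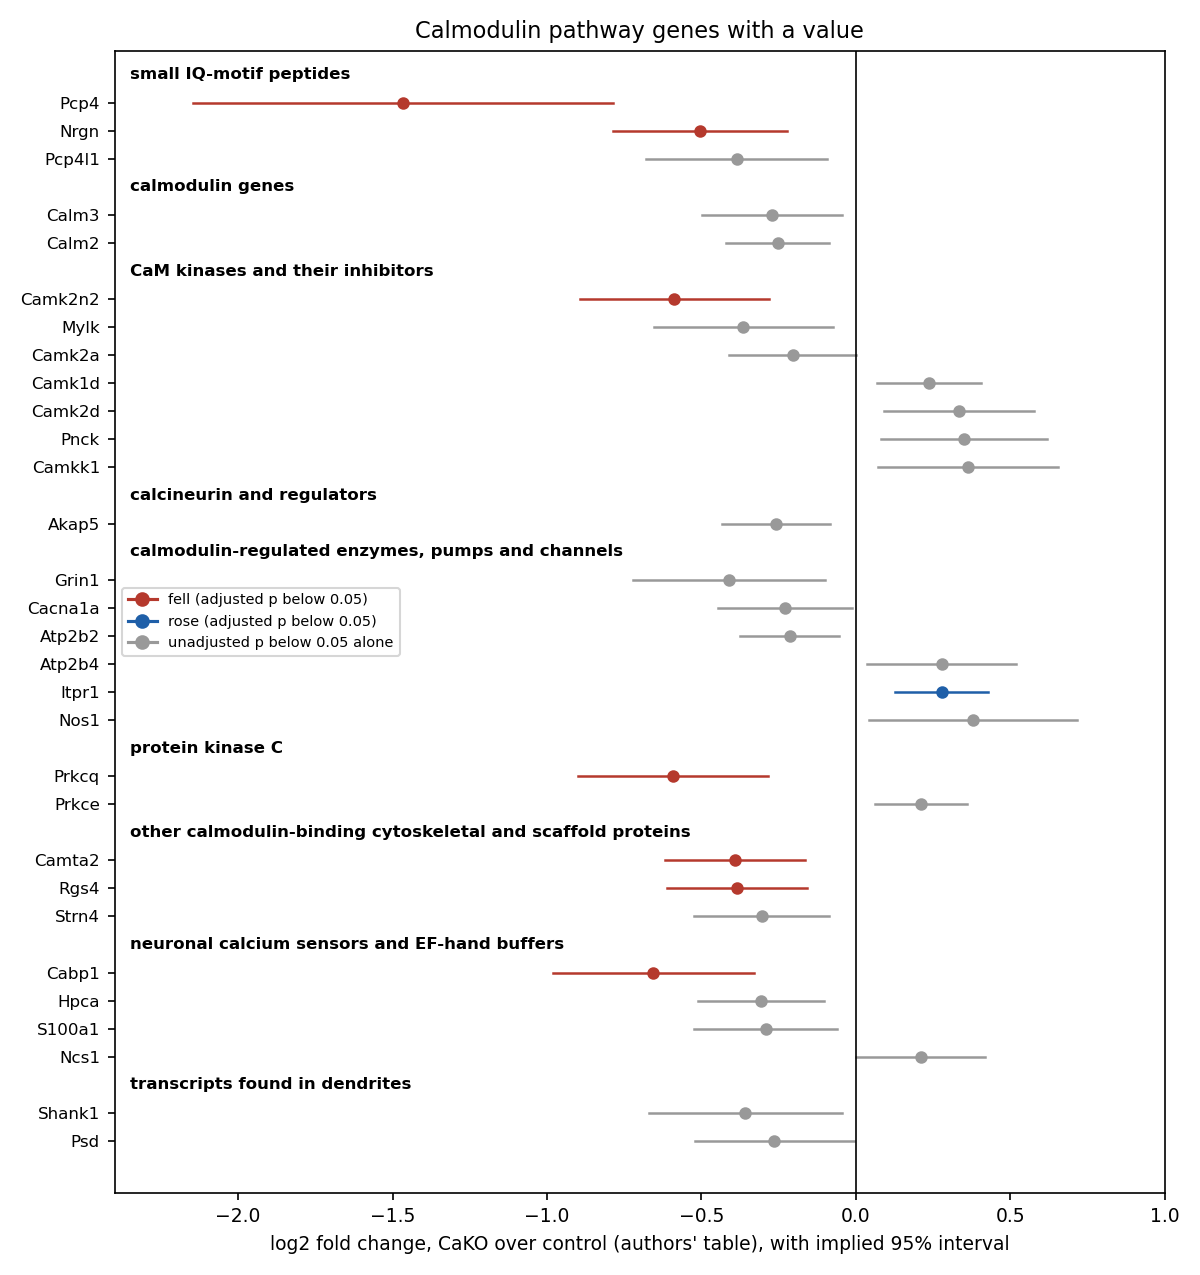
Deposited log2 fold changes of the calmodulin-list genes with a row in the adjustment, with the 95% interval implied by the deposited p, grouped by list, with 1 called rise not drawn. A gene in more than 1 list is drawn once, under the first. Pcp4 at -1.47 is the lowest value, and Itpr1 at 0.28 is drawn as a rise.

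Neurogranin mRNA is carried into dendrites, and 16 genes with dendritic transcripts were listed for that reason. Of these, 4 were lower by the unadjusted p and none was higher, beside 8.68% and 7.14% of all genes. The 4 include Nrgn, which was chosen with this contrast known, so nothing is read from the count. The 1 fall was Nrgn itself, for which the list was made, beside 1.97% of all genes. The authors' deposited table lists Shank1, a postsynaptic scaffold, at -0.36 (adjusted p 0.226) and Psd, an exchange factor of spines, at -0.26 (adjusted p 0.295).

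On the genome, 2 genes near Nrgn had a row, and no gene near Pcp4 did. Of 17 other genes that start within 200 kb of Nrgn, 2 have a row and both fell, beside 1.97% of all genes in the adjustment. How many of the 17 entered the adjustment is unknown, and nothing is read from the count. Vsig2, an immunoglobulin-domain gene (chr9:37539255-37544205, plus strand), ends 286 bases from the 3′ end of Nrgn and points towards it. Its CaKO counts were 190.0, 238.5, 239.6 and 268.8, with -0.72 in the authors' deposited table (adjusted p 0.000907). Replicate 3 was not low for Vsig2. Hepacam, a glial adhesion gene (chr9:37367351-37386575), had 1050, 1034, 925.5 and 959.7, with -0.37 in the authors' deposited table (adjusted p 0.0029). Of 5 genes that start within 200 kb of Pcp4, 0 have a row.

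Over the 4 CaKO libraries the 2 peptides were both low in replicate 3 (-0.47 for Nrgn, -0.71 for Pcp4). They differed in direction in replicate 4 (0.21 and -0.32). Likeness was measured as the root mean square difference of log2(normalised count + 1), each gene centred on its own mean, among 1809 genes with a CaKO mean of at least 100. Closest to Nrgn were Pfdn1 (0.036), Foxp4 (0.037), Sf3b5 (0.040), Timm13 (0.043) and Nfix (0.044), against a median of 0.286 over all genes. Pcp4 ranked 1701st in likeness to Nrgn, at 0.439. Closest to Pcp4 were mt-Te (0.197), Zfp362 (0.205), mt-Cytb (0.222), Gm10241 (0.223) and mt-Tn (0.229), against a median of 0.565. Of these, mt-Te, mt-Cytb and mt-Tn carry the mitochondrial prefix in their symbol. Nrgn ranked 157th in likeness to Pcp4, at the same 0.439, which is below the median of 0.565. The measure also grows with a gene's own spread, which was large for Pcp4, so the 2 ranks differ. The measure covers 4 mice of 1 genotype and describes their differences only.

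**Figure D4:**
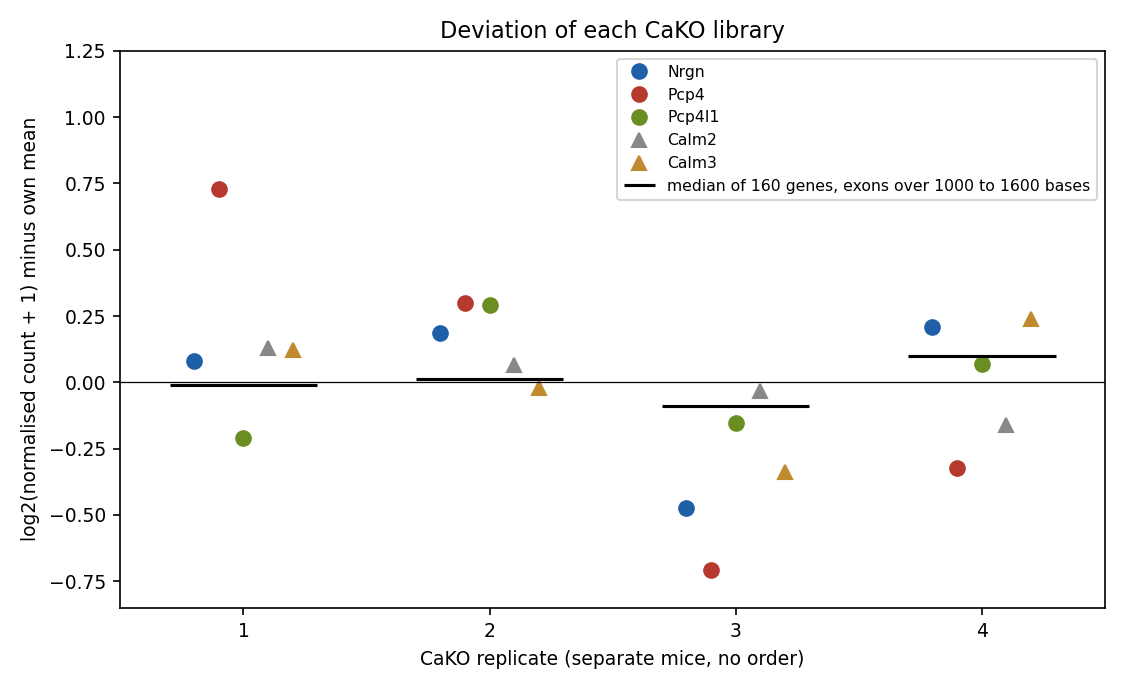
Deviation of each CaKO library from the gene's own mean, in log2(normalised count + 1), for Nrgn, Pcp4, Pcp4l1, Calm2 and Calm3, with a bar at the median of the 160 genes with over 1000 to 1600 bases of exon, which include all but Calm3. Nrgn is low in replicate 3 alone (-0.47), whereas Pcp4 is low in replicates 3 (-0.71) and 4 (-0.32).

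The low replicate 3 was shared widely. Of the 255 genes that fell, 176 (69.0%) had their lowest CaKO value there, against 14 of the 164 that rose (8.54%) and 748 of all 2047 (36.5%). Among these 2047 genes, all with an unadjusted p below 0.05, short ones passed more often in both directions. Of those with up to 1000 bases of exon 42.4% passed, of those above 8000 bases 13.4%, and of all 2047 20.5%. How many of all tested genes of each length passed is unknown, since genes above that p have no row. All 3 measured peptides belong to the 160 genes with over 1000 to 1600 bases of exon, of which 85 were lower and 75 higher (53.1% lower, against 54.9% of all 2047), and of which 24 fell and 18 rose. Of the 132 genes of 1000 bases or less 35 fell and 21 rose, and of the 254 genes above 8000 bases 20 fell and 14 rose. The share of lower genes showed no order over the 6 length classes, at 51.5% to 60.3%. Other values did differ with length. The median log2 fold change was -0.35 up to 1000 bases, -0.25 over 1000 to 1600 bases and -0.17 above 8000 bases. In the same classes the median deviation of replicate 3 was -0.098, -0.088 and -0.007. Of the genes in each, 54 of 132, 31 of 160 and 9 of 254 had a log2 fold change below that of Nrgn. The part of replicate 3 and of exon length in the values of Nrgn and Pcp4 was not tested beyond leaving that library out.

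**Figure D5:**
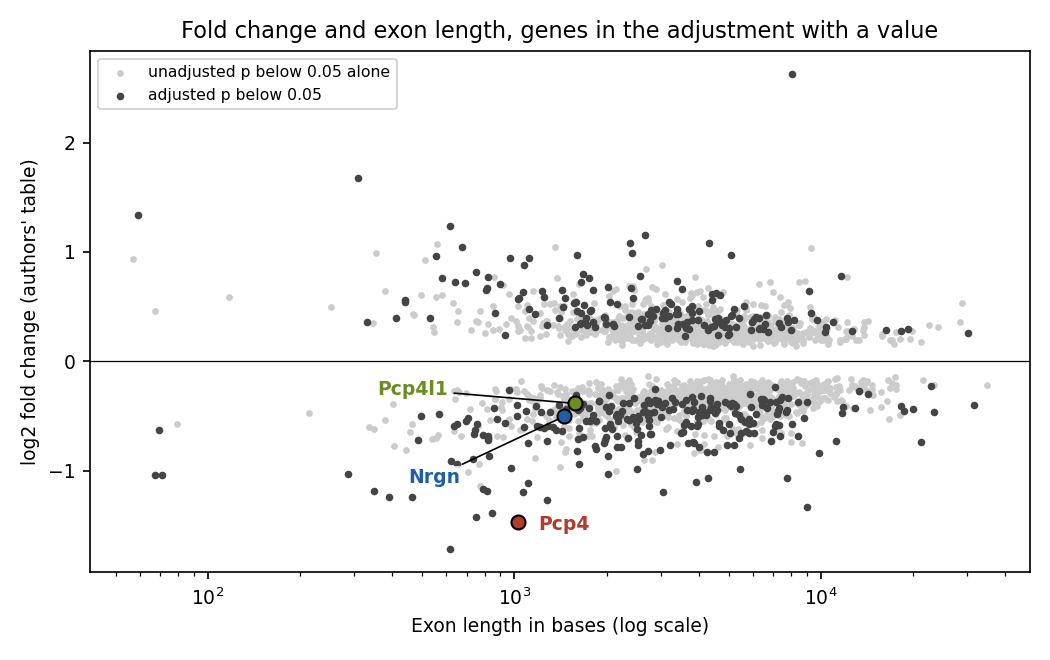
Deposited log2 fold change against exon length in bases (log scale) for genes in the adjustment, with genes that pass the adjusted threshold darker. Nrgn and Pcp4l1 sit inside the cloud of genes of their length, and Pcp4 (-1.47) sits near its lower edge.

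Cell type markers were read beside the peptides, since neurogranin marks pyramidal neurons in general and Pcp4 deep-layer ones. Over all genes in the adjustment, 1.97% fell and 1.27% rose, which is the background for each count of markers. Each count is over all markers of a list, and how many of them entered the adjustment is unknown. Summed levels are over the markers with a row alone, which had an unadjusted p below 0.05, so the sums were selected on this contrast and describe those rows only. Of 14 general pyramidal markers 2 fell, Nrgn and the neuropeptide gene Cck (-0.47, adjusted p 0.0191), as the authors' deposited table gives it, and none rose. The 7 with a row summed to 79767 to 97837 normalised counts in the CaKO libraries, against an implied 107148 in controls. Without Nrgn and Camk2a, which make up most of that sum, the other 5 summed to 32424 to 35559 against 35657. By the unadjusted p, 6 of the 14 were lower and 1 higher, beside 8.68% and 7.14% of all genes. The higher one, Sv2b (0.19 in the authors' deposited table), is in that smaller sum. So are Cck, Emx1 (-0.44), Chn1 (-0.19) and Tbr1 (-0.23), which were lower, so the sum does not show each marker unchanged. Of 12 upper-layer markers, 4 fell and none rose (5031 to 6276 against 7277). They were Cux1 (-0.44), Stard8 (-0.52), Lamp5 (-0.36) and Penk (-0.43) in the authors' deposited table. Of 17 deep-layer markers, which include Pcp4, 1 fell and 1 rose (4559 to 5313 against 5096, and 4264 to 4916 against 4386 without Pcp4). The deep-layer gene that fell was Pcp4 itself, and the one that rose was Crym, a thyroid hormone-binding protein, at 0.73 in the authors' deposited table (adjusted p 0.0130). The other deep-layer markers with a row were Tshz2 (0.54), Tle4 (0.25), Tbr1 (-0.23) and Cplx3 (-0.43) by the deposited log2 fold change, and none passed.

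Markers of other cells moved as well. Of 9 striatal markers 2 fell, among them Penk, which is also in the upper-layer list, while Drd1 (0.41) and Tac1 (0.35) were higher by the unadjusted p in the authors' deposited table. Of 8 oligodendrocyte markers 4 fell (Mobp, Mbp, Cnp and Mag), with a summed CaKO level of 35491 to 43248 against an implied 56771. The precursor list had 3 falls among 5 genes (2118 to 3058 against 3958), and the astrocyte list 2 among 7 (9798 to 12287 against 14420). Among 7 Purkinje markers, Itpr1 alone had a row. Of 13 interneuron markers, Npy alone had a row and fell (-0.48 in the authors' deposited table), and of 4 red cell genes 1 fell, the haemoglobin gene Hba-a1 (-1.18 there). No call was made among 7 olfactory and piriform, 5 microglial or 4 endothelial markers. No marker with a row was at 0 in every CaKO library. The part of cell composition in the values of Nrgn and Pcp4 was not tested.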

How the data were processed

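The genotype label gave the groups, 4 CaKO and 4 control mice. Per the submitters' processing notes, the tools were TopHat2 2.0.12, HTSeq 0.6.1 and DESeq2 1.30.1, with GRCm38. Whether counting used strand is not given in the sources used here. Used here were 4 CaKO columns of a signal that the authors made from read counts: within 0.01, every value is a whole multiple of 1 step per library (1.00506, 1.00194, 0.994113 and 1.04204), so it is a normalised count and not FPKM. The log2 fold changes, p-values and adjusted p-values are the authors', as deposited. Their direction is CaKO over control, since 18 of 18 genes at 0 in every CaKO library are negative. Every p-value in the deposited table is at most 0.0499, so genes above that have no row. Of 2372 rows, 2047 have an adjusted p that follows Benjamini-Hochberg over 12938 genes (largest relative difference 0.00504), and 325 are listed at 1 and treated as outside the adjustment. Reads over these genes were 2832931 to 3183638 per CaKO library, and total depth is unknown.

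"Rose" and "fell" mean an adjusted p below 0.05, and "lower" and "higher" an unadjusted one. Rows were matched to GENCODE M21 by position (2266 exactly, 89 by at least 80% overlap, 17 not). Intervals on counts are 95% Poisson intervals and cover counting error only. Standard errors were derived from the deposited p under a Wald test. Leaving out a library held the implied control fixed, widened the standard error 1.08-fold, and kept a call where p was at most 0.00162. The standard error was not estimated anew, so any spread added by the library left out stays in it. Near-identical copies were sought with BLAST 2.17.0. Python 3.11.15, pandas 2.3.3 and scipy 1.17.1 were used, and the calculations were tested on simulated data. A fit of both groups and a count test were planned for the case that control values could be used, and were not run. The members and lists were chosen with earlier results of these data known. Genes were named by rule: the members, list genes with a row (the 4 of smallest p in lists with over 6), neighbours within 200 kb, and the 5 most alike in the CaKO libraries. Called list genes and the marker genes were named in addition, with their values seen. Some genes of the lists and 1 sequence are not reported here.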

Additional observations from a re-analysis of the deposited data

Results flagged for a closer look

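Within the 4 CaKO libraries, 81 named or listed genes were checked for a single library far from the other 3, and 8 had one, where chance gives about 1 in 20. Replicate 3 was the low library for Pfdn1 (175.0 normalised counts, next 253.3), Foxp4 (170.0, next 265.3), Sf3b5 (198.8, next 307.6) and Timm13 (205.8, next 307.6). These 4 were named for their likeness to Nrgn, which is itself low in that library, so their pattern follows from the choice. The 8 of 81 therefore cannot be read as an excess over the share given by chance. Replicate 3 was also the low library for Strn4, a striatin scaffold (2383, next 3234), and Lhx2, a homeobox gene (666.1, next 950.8). Replicate 1 was high for Cnp, a myelin enzyme (2560, next 2285), and replicate 4 for Cplx3, a complexin (116.7, next 95.2). Nrgn did not meet the criterion, with its lowest library's gap at 0.778 of the range, under the 95% limit of Dixon's test.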

How the results depend on the processing

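Pcp4 kept its direction and its call under every alternative run, at -1.76 to -1.27 on the log2 scale when 1 CaKO library was left out. Nrgn kept its direction at -0.57 to -0.37, but lost its call without replicate 3 (-0.37) and with the median of the CaKO libraries in place of their mean (-0.39). Rescaling the libraries to equal reads gave -0.51 for Nrgn and -1.49 for Pcp4. The calls in the calmodulin lists, 9 genes, numbered 12 at an adjusted p below 0.1, 31 by the unadjusted p, and 3 to 11 when 1 library was left out, with 3 without replicate 3. Over the whole table, 419 calls became 671 at an adjusted p below 0.1 and 193 to 406 when 1 library was left out, with 193 without replicate 3, of which 180 were among the 419. Genes without a row could not enter these counts. The counts with 1 library left out keep the standard error implied by all libraries, so some lost calls may come from the approximation. The cause was not tested. The counts without single libraries were chosen after seeing the data. With genes of a CaKO mean of at least 20, 2 of the 5 genes most like Pcp4 were shared, and all 5 for Nrgn. No paired analysis was possible because the control libraries' values were not analysed here. Leaving out control libraries, another normalisation with both groups and the replicate block were not run for that reason.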
